A study of Mus musculus with 2 samples.

Results

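The hypoxia-responsive genes described here are *Vegfa*, *Stc1*, *Adm*, *Hilpda*, *Bnip3*, *Ankrd37*, *Egln3*, *Pdk1*, *Slc2a1* and *Ndrg1*. They were chosen by symbol as genes known to respond to low oxygen, and all 10 were found among the 32285 genes counted. The study asked how hedgehog-interacting protein (HHIP), an inhibitor of Hedgehog ligands, acts on myofibroblasts while alveoli form, and for this it made single-cell RNA-seq libraries from 1 control and 1 *Gli1 HHIPCKO* mouse at postnatal day 14 (P14). Both mice were *Gli1 creER/+*: *Hhip flox/flox*. The *Gli1 HHIPCKO* mouse was given tamoxifen on 3 days from birth, which activates the Cre recombinase made in *Gli1*-expressing cells, and the control was given oil. Live stromal (CD45-/CD31-/CD326-) and epithelial (CD45-/CD31-/CD326+) cells were sorted and pooled 3:1, so the gates left few endothelial and immune cells. Tamoxifen and the deletion cannot be told apart in this design.

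The control library held 43291709 unique molecular identifiers (UMIs) in 10999 cells, with a median of 3531 UMIs per cell. The *Gli1 HHIPCKO* library held 52338969 UMIs in 12350 cells, with a median of 3720. After filtering, 10917 and 12115 cells were kept. The libraries shared 193 cell barcodes, which are 1.75% and 1.56% of their barcodes. *Xist*, which is made from the inactive X chromosome of females, had a UMI in 0.110% of control cells and in 56.7% of *Gli1 HHIPCKO* cells, so the mice differed in sex-linked expression and this cannot be told apart from the deletion.

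Cells were placed in 12 classes with at least 50 cells in each library, by marker genes that did not include the members. The classes are called alveolar myofibroblast-like (ALMF-like), ductal myofibroblast-like (DMF-like), peribronchial and airway smooth muscle-like, pericyte-like, alveolar fibroblast-like, adventitial fibroblast-like, mesothelial-like, alveolar type 2-like (AT2-like), ciliated-like, endothelial-like, immune-like and red cell-like. No cluster was named for alveolar type 1 cells. The naming thresholds were set after the clusters had been seen, and they left 12 of 33 clusters unnamed, which held 20.2% and 22.2% of the cells in the control and *Gli1 HHIPCKO* libraries. Myofibroblast-like cells, 2856 in the control and 2853 in the *Gli1 HHIPCKO* library, are the ALMF-like cells (936 and 238), the DMF-like cells (1456 and 1967) and a cluster led by the immediate early genes *Socs3*, *Egr1* and *Junb* that carried both sets of markers (464 and 648). Different clusters held most DMF-like cells of each library: 1 cluster had 1350 control and 28 *Gli1 HHIPCKO* cells, and another had 106 and 1939. AT2-like cells were likewise split between a cluster of 2395 and 696 cells and a cluster of 565 and 2112.

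Levels are UMIs of a gene per 1000000 UMIs of the class and library (CPM). Ratios are log2 of *Gli1 HHIPCKO* over control, with 95% intervals in parentheses. Each group has 1 library, so nothing was tested, and the intervals cover counting error only. *Hhip* itself (ENSMUSG00000064325, chr8:79965851-80058006, GRCm38) had a level of 1116 CPM in myofibroblast-like cells of the control and 292 CPM in those of the *Gli1 HHIPCKO* mouse, a log2 ratio of −1.93 (−1.998 to −1.87). By subset the ratio was −2.39 (−2.47 to −2.32) in DMF-like cells and −0.39 (−0.70 to −0.09) in ALMF-like cells, where the levels were 201 and 154 CPM. Red cell-like droplets, which are not expected to make *Hhip*, held 139 and 45.6 CPM. AT2 markers summed to 41086 and 58480 CPM in the droplets and to 2874 and 1710.4 CPM in ALMF-like cells. The part of free RNA in the ALMF-like *Hhip* levels was not tested. The records name both a 3′ and a 5′ kit, so it is not known which end of the transcript these UMIs come from, and they may lie outside the deleted part of the gene. *Hhip* UMIs were lower in the library labelled as deleted, and of the DMF-like and ALMF-like subsets more so in the DMF-like one. Peribronchial and airway smooth muscle-like cells held the most *Hhip*, 2386 and 648 CPM, a ratio of −1.88 (−2.02 to −1.74). The ratio was −2.44 in ciliated-like cells and −1.61 in red cell-like droplets.

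Cells sense oxygen through prolyl hydroxylases that mark the alpha subunits of hypoxia-inducible factors (HIFs) for removal by the VHL ubiquitin ligase. When oxygen is low, the alpha subunits last longer, pair with ARNT and bind a short motif beside genes of blood vessel growth, glycolysis, mitochondrial turnover and feedback on the oxygen sensors. In the growing lung, VEGFA from epithelial and mesenchymal cells is known to sustain the alveolar capillaries, and many of these genes also answer to signals other than oxygen.

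In myofibroblast-like cells the members moved apart. Among the 8 members with at least 50 UMIs over both libraries, *Stc1*, *Hilpda* and *Vegfa* were at least 1.5-fold lower in *Gli1 HHIPCKO* cells and *Egln3* was at least 1.5-fold higher. Of the 11216 genes with at least 50 UMIs, 6.46% were lower and 7.73% were higher by that much. The summed level of all 10 members was 518 CPM in the control and 303 CPM in the *Gli1 HHIPCKO* library, a log2 ratio of −0.77 (−0.84 to −0.70). The median ratio of the 8 members was 0.24, beside −0.02 over all genes, so the sum and the median differed in sign. *Stc1* and *Hilpda* gave 25.4% and 29.8% of the member UMIs in the control, and without them the summed ratio was 0.0716. *Bnip3* alone gave 19.4% of the member UMIs in the control and 43.4% in the *Gli1 HHIPCKO* library. *Stc1* and *Hilpda* are also in the study's table of ALMF markers, which was chosen on these samples, so their pattern there is no independent evidence.

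**Figure D1:**
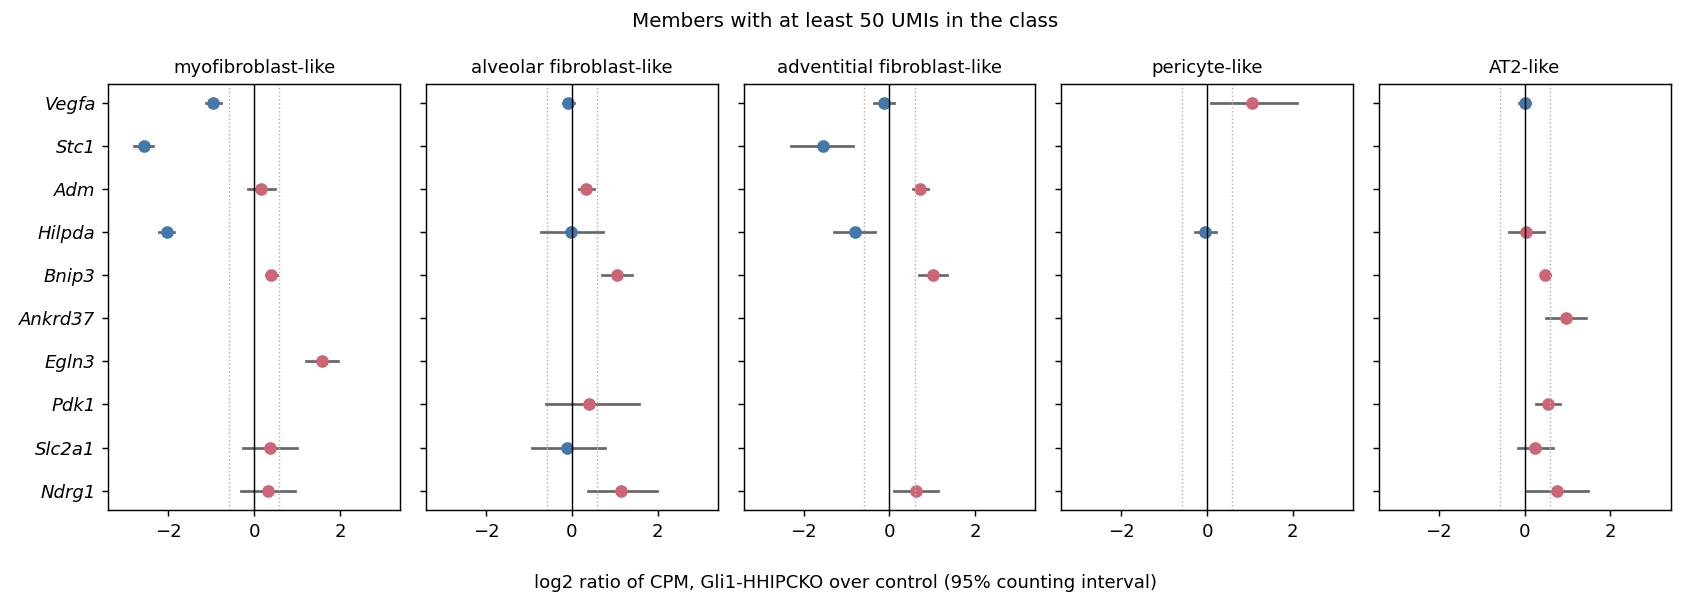
Log2 ratio of CPM, *Gli1 HHIPCKO* over control, for each member with at least 50 UMIs in 5 cell classes; points are ratios from 1 library per group, lines are 95% intervals of counting error, and dotted lines mark 1.5-fold. In myofibroblast-like cells *Stc1*, *Hilpda* and *Vegfa* lie left of the dotted line and *Egln3* lies right of it, while *Bnip3* lies right of 0 in the 4 classes where it is drawn.

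Among the secreted members, *Stc1* (ENSMUSG00000014813, chr14:69029238-69041804) encodes stanniocalcin-1, a secreted glycoprotein linked to calcium and phosphate handling. In control myofibroblast-like cells it had 1117 UMIs, or 131 CPM (124 to 139). In *Gli1 HHIPCKO* cells it had 198 UMIs, or 22.2 CPM (19.2 to 25.5), a ratio of −2.57 (−2.79 to −2.35) and a 5.93-fold lower level. The intervals of the libraries were far apart, and this was the largest difference of any member with at least 50 UMIs in these cells. ALMF-like cells, 936 of 2856 and 238 of 2853 of these cells, gave 733 of the 1117 and 115 of the 198 UMIs. Their share enters the pooled value, and its part was not tested. By subset, *Stc1* stood at 262 and 164 CPM in the ALMF-like cells of the 2 libraries and at 40.2 and 6.15 CPM in the DMF-like cells, ratios of −0.68 (−0.98 to −0.39) and −2.71 (−3.29 to −2.17). The size of the ALMF-like difference depended on how cells were grouped. With each library clustered on its own, which gave 1018 and 862 ALMF-like cells, the levels were 251 and 52.7 CPM and the ratio was −2.25. At a coarser clustering, which put 2738 control and 349 *Gli1 HHIPCKO* cells in that class, the ratio was −0.03. The DMF-like ratio ranged from −3.45 to −2.56 over 9 alternatives.

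Outside the myofibroblasts, *Stc1* was 47.2 and 4.80 CPM in peribronchial and airway smooth muscle-like cells and 22.8 and 7.82 CPM in adventitial fibroblast-like cells. Its interval lay below 0 in 10 of 12 classes and held 0 in pericyte-like and endothelial-like cells. Mesothelial-like cells had 19 *Stc1* UMIs in the control and 0 in the *Gli1 HHIPCKO* library, where a limit of 3 UMIs corresponds to 2.56 CPM. Red cell-like droplets, which are not expected to make the transcript, held 12.6 and 2.58 CPM. Levels close to or under these values, such as 12.9 CPM in control immune-like cells, 11.5 CPM in control ciliated-like cells and 1.36 CPM in control AT2-like cells, are not read as expression. The *Gli1 HHIPCKO* levels of the adventitial fibroblast-like and the peribronchial and airway smooth muscle-like cells had intervals that overlap the one of these droplets. In that library AT2 markers summed to 1807 and 2104.8 CPM in these 2 classes and to 58480 CPM in the droplets. A droplet level is thus not the level of free RNA in these classes, and the part of free RNA there was not tested.

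*Vegfa* (ENSMUSG00000023951, chr17:46016993-46032369) encodes the main growth factor for vascular endothelium. It stood at 92.3 CPM (85.9 to 98.9) in myofibroblast-like cells of the control and 47.6 CPM (43.2 to 52.3) in those of the *Gli1 HHIPCKO* mouse, a ratio of −0.96 (−1.13 to −0.78). The DMF-like level was 65.7 and 41.0 CPM, a ratio of −0.68 (−0.94 to −0.41). In ALMF-like cells, at 131 and 119.5 CPM, no difference was detectable at this depth, whereas clustering each library on its own gave 130.3 and 80.0 CPM in that class, a ratio of −0.70. The alveolar fibroblast-like cells held the highest *Vegfa* level of the 12 classes in both libraries, 392 and 369.6 CPM, with a ratio of −0.09 (−0.21 to 0.04). That ratio was 0.27 (0.16 to 0.39) with each library clustered on its own and −0.25 with immediate early genes also held out of clustering, so its sign depended on the grouping of cells. AT2-like cells held 62.9 and 62.9 CPM, the interval of the ratio running from −0.13 to 0.13. The AT2-like cluster of 2395 and 696 cells held 57.5 and 57.8 CPM. The one of 565 and 2112 cells held 80.8 and 64.1 CPM, a ratio of −0.33 (−0.53 to −0.13). Red cell-like droplets held 23.5 and 53.4 CPM, and the *Gli1 HHIPCKO* intervals of myofibroblast-like, DMF-like and AT2-like cells overlap the one of the droplets. AT2 markers summed to 41086 and 58480 CPM in the droplets and to 3085 and 2094.5 CPM in myofibroblast-like cells. DMF markers summed to 510 and 801 CPM in the droplets and to 27.3 and 35.5 CPM in AT2-like cells. The part of free RNA in these *Vegfa* levels was not tested. A *Vegfa* level at least 1.5-fold lower was thus seen in myofibroblast-like cells and not in the class with the most *Vegfa*, a difference between classes that was not tested. ALMF-like cells were 936 of 2856 and 238 of 2853 myofibroblast-like cells, so their share enters the pooled value, and its part was not tested.

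Summed over all mesenchymal cells, *Vegfa* was higher in the *Gli1 HHIPCKO* library, 107 against 130.1 CPM. The alveolar fibroblast-like class gave 657 of 1830 mesenchymal *Vegfa* UMIs in the control and 2056 of 2861 in the *Gli1 HHIPCKO* library, and it held 513 and 1635 cells. The share of cells in each class therefore enters any value over all mesenchymal cells, and the classes are followed here.

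*Adm* (ENSMUSG00000030790, chr7:110627661-110629820) encodes adrenomedullin, a vasodilator peptide. It was highest in the alveolar and adventitial fibroblast-like classes. In alveolar fibroblast-like cells it was 193 CPM in the control and 243 CPM in the *Gli1 HHIPCKO* library, a ratio of 0.33 (0.16 to 0.51). In adventitial fibroblast-like cells it was 149.6 and 247 CPM, a ratio of 0.72 (0.55 to 0.90). In myofibroblast-like cells it stood at 17.7 and 19.8 CPM, near the 16.8 and 24.1 CPM of red cell-like droplets, and the ratio of 0.17 (−0.16 to 0.49) held 0. AT2 markers summed to 3085 and 2094.5 CPM in those cells and to 41086 and 58480 CPM in the droplets. The part of free RNA in these *Adm* levels was not tested. *Adm* was thus higher in the fibroblast classes that make most of it, by less than 1.5-fold in the first and 1.65-fold in the second.

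*Hilpda* (ENSMUSG00000043421, chr6:29272488-29275446) encodes a small protein of lipid droplets that inhibits the triglyceride lipase ATGL. In myofibroblast-like cells it had 1311 UMIs in the control, 154 CPM (146 to 163), and 335 in the *Gli1 HHIPCKO* library, 37.5 CPM (33.6 to 41.7). The ratio was −2.04 (−2.22 to −1.87), a 4.11-fold lower level. ALMF-like cells, 936 of 2856 and 238 of 2853 of these cells, gave 643 of the 1311 and 55 of the 335 UMIs. Their share enters the pooled value, and its part was not tested. ALMF-like cells held 230.0 and 78.3 CPM and DMF-like cells 98.4 and 31.1 CPM, ratios of −1.56 (−1.98 to −1.16) and −1.66 (−1.93 to −1.40). *Hilpda* was thus lower in both subsets of myofibroblast-like cells, and over 9 alternatives the ratio stayed between −2.18 and −1.08 in the first and between −1.74 and −1.21 in the second.

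The classes with the most *Hilpda* did not share this difference. Pericyte-like cells held 296 and 287 CPM in the control and *Gli1 HHIPCKO* libraries, a ratio of −0.04 (−0.28 to 0.20). Endothelial-like cells, 156 and 101 in number, held 314 and 242 CPM, a ratio of −0.38 (−0.90 to 0.13). In pericyte-like cells the interval leaves out a 1.5-fold difference, while in endothelial-like cells it does not. *Hilpda* was lower, with intervals below 0, in adventitial fibroblast-like cells (35.4 and 20.4 CPM), mesothelial-like cells (31.4 and 16.2 CPM) and peribronchial and airway smooth muscle-like cells (37.8 and 16.8 CPM). The *Gli1 HHIPCKO* intervals of these 3 classes overlap the one of red cell-like droplets. In that library AT2 markers summed to 1807, 57488.6 and 2104.8 CPM in these classes in the same order, and to 58480 CPM in the droplets. The part of free RNA in these levels was not tested. In alveolar fibroblast-like cells *Hilpda* stood at 13.7 and 13.5 CPM, and with each library clustered on its own at 33.9 and 12.8 CPM, so that value depended on the grouping of cells.

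*Egln3* (ENSMUSG00000035105, chr12:54178981-54203860) encodes PHD3, a prolyl hydroxylase that is itself induced by HIFs and acts in feedback on them. In myofibroblast-like cells it had 83 UMIs, 9.77 CPM (7.78 to 12.1), in the control and 260 UMIs, 29.1 CPM (25.7 to 32.9), in the *Gli1 HHIPCKO* library. The ratio was 1.58 (1.21 to 1.95), a 2.98-fold higher level and the opposite direction to *Stc1*, *Hilpda* and *Vegfa* in the same cells. Its DMF-like level was 11.3 and 29.1 CPM, a ratio of 1.36 (0.87 to 1.88), which was 0.05 at the coarser clustering with 119 control DMF-like cells. Within the DMF-like cluster of 106 and 1939 cells the ratio was −0.39 (−1.47 to 0.94), from 7 and 158 UMIs. Within the one of 1350 and 28 cells it was 2.03 (−0.31 to 3.69), from 37 and 3 UMIs. The class with the most *Egln3* was peribronchial and airway smooth muscle-like, at 55.1 and 85.2 CPM with a ratio of 0.63 (0.03 to 1.26). AT2 markers in that class summed to 9520.5 and 2104.8 CPM and red cell markers to 364 and 2928 CPM. Their part in the member values of that class was not tested. In ALMF-like cells 21 and 11 UMIs, 7.51 and 15.7 CPM, could not separate the libraries, whereas clustering each library on its own gave 28 and 56 UMIs, 9.26 and 21.2 CPM, a ratio of 1.20 (0.52 to 1.91).

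*Bnip3* (ENSMUSG00000078566, chr7:138890836-138909519) encodes an outer mitochondrial membrane protein that takes part in mitophagy. It was the member that was higher in the most classes. It stood at 100.5 CPM (93.9 to 107) in myofibroblast-like cells of the control and 132 CPM (124 to 139.5) in those of the *Gli1 HHIPCKO* mouse, a ratio of 0.39 (0.26 to 0.52) that is under 1.5-fold. In alveolar fibroblast-like cells it was 48.4 and 99.8 CPM and in adventitial fibroblast-like cells 42.2 and 85.3 CPM, ratios of 1.04 (0.71 to 1.40) and 1.01 (0.70 to 1.34). AT2-like cells held 83.0 and 116 CPM, a ratio of 0.48 (0.38 to 0.58), and mesothelial-like cells 48.2 and 92.1 CPM, a ratio of 0.93 (0.48 to 1.40). Red cell markers in mesothelial-like cells summed to 2099 and 4961.5 CPM and immediate early genes to 5680 and 8968 CPM, and their part was not tested. The ratio was above 0 in all 10 classes with at least 50 *Bnip3* UMIs, and over all 12 classes the interval lay above 0 in 8 and below 0 in 0. The red cell-like class is in both counts, and there 54.0% of 3055 genes were at least 1.5-fold higher, with a median ratio of 0.64. These ratios share the same 2 libraries and are not independent. In pericyte-like cells the level was 9.09 and 30.5 CPM from 7 and 41 UMIs. Red cell markers in that class were 866 and 15097 CPM, and red cell-like droplets held 15.1 and 43.9 CPM of *Bnip3*. The part of red cell RNA in the pericyte-like value was not tested.

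**Figure D2:**
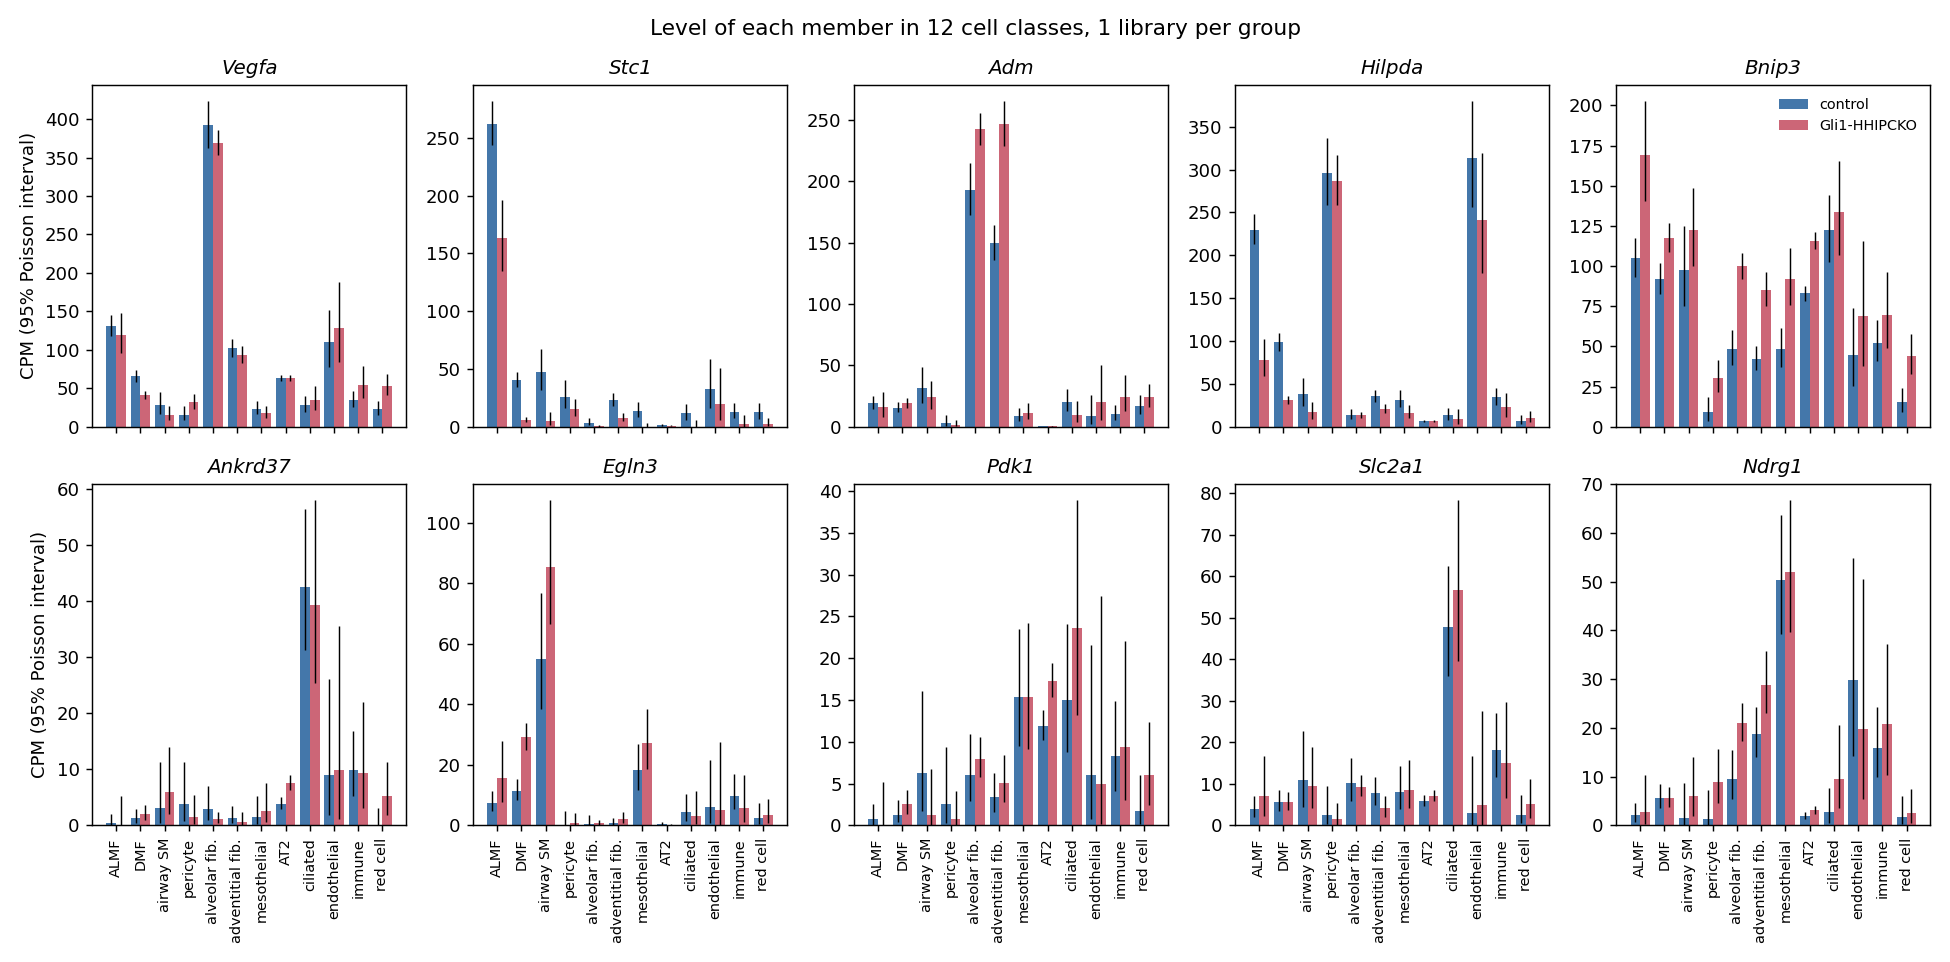
Level in CPM of each of the 10 members in 12 cell classes, control (blue) and *Gli1 HHIPCKO* (red), with 95% Poisson intervals from 1 library per group. *Stc1* is highest in ALMF-like cells, *Vegfa* in alveolar fibroblast-like cells, *Hilpda* in endothelial-like and pericyte-like cells and *Egln3* in peribronchial and airway smooth muscle-like cells; each panel has its own axis, which starts at 0.

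The members of glucose metabolism had few UMIs in myofibroblasts. *Pdk1* (ENSMUSG00000006494, chr2:71873224-71903858) encodes a mitochondrial kinase that inhibits pyruvate dehydrogenase, and it had 10 and 19 UMIs in myofibroblast-like cells, 1.18 and 2.13 CPM. In AT2-like cells it had 175 and 291 UMIs, 11.9 and 17.3 CPM, a ratio of 0.55 (0.27 to 0.83). *Pdk1* was thus higher in AT2-like cells of the *Gli1 HHIPCKO* library by 1.46-fold. *Slc2a1* (ENSMUSG00000028645, chr4:119108711-119137983) encodes the glucose transporter GLUT1. It stood at 4.71 and 6.05 CPM in myofibroblast-like cells and at 5.96 and 7.08 CPM in AT2-like cells, and its ratio held 0 in all 12 classes. No difference in *Slc2a1* was detectable at this depth in any class.

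*Ankrd37* (ENSMUSG00000050914, chr8:45996902-46005707) encodes an ankyrin repeat protein. It had 11 and 14 UMIs in myofibroblast-like cells. In AT2-like cells it had 57 and 126 UMIs, 3.86 and 7.50 CPM, a ratio of 0.96 (0.49 to 1.43) and a 1.94-fold higher level. Red cell-like droplets had 0 and 6 UMIs of it, and their *Gli1 HHIPCKO* level of 5.16 CPM has an interval that overlaps the AT2-like one. Ciliated-like cells held the most *Ankrd37*, 42.5 and 39.3 CPM, with a ratio of −0.11 (−0.87 to 0.61). *Ndrg1* (ENSMUSG00000005125, chr15:66929318-66969640) encodes a cytoplasmic protein induced by stress and differentiation. Its ratio was 1.14 (0.38 to 1.99) in alveolar fibroblast-like cells (9.55 and 21.03 CPM), 0.62 (0.12 to 1.14) in adventitial fibroblast-like cells (18.7 and 28.9 CPM) and 0.76 (0.06 to 1.49) in AT2-like cells (1.83 and 3.095 CPM). In mesothelial-like cells, which held the most, it was 50.4 and 52.0 CPM, a ratio of 0.05 (−0.48 to 0.56), and in myofibroblast-like cells it was 4.59 and 5.71 CPM. *Ndrg1* was thus higher in both other fibroblast classes, while no difference was detectable in myofibroblast-like cells. The AT2-like levels are close to the 1.68 and 2.58 CPM of red cell-like droplets. DMF markers summed to 27.3 and 35.5 CPM in AT2-like cells and to 510 and 801 CPM in the droplets. The part of free RNA in *Ndrg1* of AT2-like cells was not tested.

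By class, 5 members reached 50 UMIs in ALMF-like cells. *Stc1* and *Hilpda* were at least 1.5-fold lower and *Bnip3* was at least 1.5-fold higher there, where 8.79% of all 8284 genes were lower and 7.64% were higher, and the summed ratio was −0.41 (−0.57 to −0.26). With each library clustered on its own *Bnip3* stood at 102 and 146 CPM in that class, a ratio of 0.52 (0.30 to 0.74), which is under 1.5-fold. Red cell markers summed to 461 and 2167 CPM and AT2 markers to 2874 and 1710.4 CPM in the same cells, and their part was not tested. In DMF-like cells 8 members were measured. *Stc1*, *Hilpda* and *Vegfa* were lower and *Egln3* was higher, beside 6.01% and 7.26% of 10414 genes, with a summed ratio of −0.38 (−0.49 to −0.27). The medians of the members were −0.30 for ALMF-like cells and −0.02 for DMF-like cells, beside a value within 0.01 of 0 and 0.01 over all genes.

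In the other fibroblasts and the epithelium the summed ratio was above 0. In alveolar fibroblast-like cells 7 members were measured, of which *Bnip3* and *Ndrg1* were at least 1.5-fold higher and 0 were lower, where 7.94% of 9563 genes were higher and 7.94% were lower. The summed level was 680.0 CPM in the control and 766 CPM in the *Gli1 HHIPCKO* library, a ratio of 0.17 (0.08 to 0.27), which became −0.0133 when immediate early genes were also held out of clustering. In adventitial fibroblast-like cells *Adm*, *Bnip3* and *Ndrg1* of 6 measured members were higher and *Stc1* and *Hilpda* were lower, beside 7.97% and 6.09% of 9334 genes, with a summed ratio of 0.36 (0.25 to 0.48). AT2 markers in that class summed to 3818 and 1807 CPM and red cell markers to 1871 and 2845 CPM, and their part was not tested. In AT2-like cells *Ankrd37* and *Ndrg1* of 7 measured members had ratios past 1.5-fold above 0 and none below, beside 5.47% and 4.53% of 10989 genes. The *Ndrg1* levels were near those of red cell-like droplets. For *Ankrd37* the droplets held 0 UMIs in the control and 5.16 CPM in the *Gli1 HHIPCKO* library, beside 3.86 and 7.50 CPM in AT2-like cells. The AT2-like sum was 178 CPM in the control and 221 CPM in the *Gli1 HHIPCKO* library, a ratio of 0.31 (0.24 to 0.39), and *Bnip3* gave 46.6% and 52.3% of these UMIs. The medians of the members were 0.33, 0.25 and 0.48 in these 3 classes in the same order, beside medians within 0.01 of 0 over all genes.

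The share of myofibroblast-like cells with a UMI followed the sums. *Stc1* was found in 21.01% of these cells in the control and 4.56% in the *Gli1 HHIPCKO* library. When every cell was brought down to 2000 UMIs (thinned) and 521 and 535 cells below that depth were dropped, it was found in 17.3% and 3.49%. Median depth was 2849 and 3012 UMIs in these cells and 4998 and 5262 in red cell-like droplets, of which 3.23% and 1.52% held an *Stc1* UMI. In *Gli1 HHIPCKO* DMF-like cells the share was 1.42%, near that of the red cell-like droplets. AT2 markers summed to 2333 CPM in those DMF-like cells and to 58480 CPM in the droplets of that library. The part of free RNA in *Stc1* there was not tested. *Hilpda* was found in 29.8% and 10.2% of myofibroblast-like cells (thinned 22.4% and 7.94%), beside 3.69% and 5.56% of red cell-like droplets. *Vegfa* was found in 20.9% and 12.4% (thinned 16.1% and 8.20%), beside 9.68% and 18.7%. Fewer cells with a UMI and fewer UMIs per class thus went together for these 3 genes.

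*Bnip3* was found in 25.4% and 31.8% of myofibroblast-like cells (thinned 19.2% and 23.6%), and *Egln3* in 2.66% and 7.96% (thinned 1.97% and 5.39%). The red cell-like shares were 7.37% and 19.2% for *Bnip3* and 1.38% and 2.02% for *Egln3*. In thinned control cells, *Stc1* was found in 26.0% of cells with *Hilpda* and in 14.8% of cells without it. In thinned *Gli1 HHIPCKO* cells, these shares were 8.70% and 3.05%. These shares pool ALMF-like and DMF-like cells, which differ in the levels of both genes, and the part of that was not tested. *Bnip3* was found in 19.7% of control cells with *Hilpda* and in 19.1% of those without it, a difference within counting error.

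Other features of the myofibroblast-like cells differed between the libraries too. The 12 ALMF markers, all detected and led by *Gm13889*, summed to 5049 and 4118 CPM, and the 12 DMF markers, all detected and led by *Aspn*, to 4550 and 6118 CPM. The 13 alveolar fibroblast markers, all detected and led by *Limch1*, summed to 158 and 328 CPM. The 16 immediate early genes, led by *Jun*, summed to 8299 and 11647 CPM. Without the cluster led by immediate early genes, the ratios of *Stc1*, *Hilpda*, *Vegfa* and *Egln3* were −2.48, −2.08, −0.90 and 1.504. The 8 red cell markers, led by *Hbb-bs*, summed to 452 and 877 CPM, and the 12 AT2 markers, led by *Sftpc*, to 3085 and 2094 CPM. The 10 endothelial markers summed to 165 and 95.1 CPM, nearly all from *Ramp2*, and 3 of them were at 0 in the control and 1 in the *Gli1 HHIPCKO* library. The 11 immune markers summed to 3.77 and 4.03 CPM, with 4 at 0 in each library. The median mitochondrial share was 0.414% and 0.656%. In AT2-like cells immediate early genes summed to 6788 and 9985 CPM. The part of these differences in the member values was not tested.

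Across the 12 classes, each member had its own order of levels, and most neighbours in an order were not apart by their counting intervals. For *Vegfa* alveolar fibroblast-like cells (392 CPM) came first in the control and were apart from the next class. ALMF-like (131), endothelial-like (111) and adventitial fibroblast-like cells (102) followed, and no neighbours among these were apart. DMF-like (65.7) and AT2-like cells (62.9) came next and were not apart from each other. Adventitial fibroblast-like cells were apart from DMF-like cells, and AT2-like cells from immune-like cells. Immune-like (34.9), ciliated-like (28.3), peribronchial and airway smooth muscle-like (28.3), red cell-like (23.5), mesothelial-like (23.4) and pericyte-like cells (15.6) followed, each not apart from the next. In the *Gli1 HHIPCKO* library alveolar fibroblast-like cells (369.6 CPM) were again first and apart from the endothelial-like (128), ALMF-like (119.5) and adventitial fibroblast-like cells (93.8). AT2-like (62.9), immune-like (54.7), red cell-like (53.4), DMF-like (41.0), ciliated-like (34.6) and pericyte-like cells (32.0) came next, and mesothelial-like (17.9) and peribronchial and airway smooth muscle-like cells (15.6) were last.

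For *Stc1* the ALMF-like level stood apart from the next class in both libraries. In the control it was followed by peribronchial and airway smooth muscle-like (47.2 CPM), DMF-like (40.2), endothelial-like (32.9), pericyte-like (26.0), adventitial fibroblast-like (22.8) and mesothelial-like cells (13.9), and then by immune-like, red cell-like, ciliated-like, alveolar fibroblast-like (3.58) and AT2-like cells. Only the ciliated-like and alveolar fibroblast-like neighbours were apart among these. With each library clustered on its own, control alveolar fibroblast-like cells held 14.2 CPM of *Stc1*, so that step depended on the grouping of cells. In the *Gli1 HHIPCKO* library the order after ALMF-like cells was endothelial-like (19.7, from 4 UMIs), pericyte-like (15.6), which was apart from the next, adventitial fibroblast-like (7.82), DMF-like (6.15) and peribronchial and airway smooth muscle-like cells (4.80), with the other 6 classes at or under 2.58 CPM.

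For *Hilpda* endothelial-like and pericyte-like cells came first and were not apart, and ALMF-like and then DMF-like cells followed, each apart from the one before, in both libraries. In the control the peribronchial and airway smooth muscle-like, adventitial fibroblast-like, immune-like (34.1 CPM) and mesothelial-like cells were apart from DMF-like cells and above alveolar fibroblast-like, ciliated-like (13.3), red cell-like (6.71) and AT2-like cells (6.51). In the *Gli1 HHIPCKO* library no neighbours below DMF-like cells were apart, from 22.6 CPM in immune-like to 10.3 in red cell-like, 9.44 in ciliated-like and 6.67 in AT2-like cells. For *Adm* alveolar fibroblast-like cells were apart from and above adventitial fibroblast-like cells in the control, and the classes were not apart in the *Gli1 HHIPCKO* library. Every other class was at or under 31.5 CPM in the control, the level of peribronchial and airway smooth muscle-like cells, and at or under 24.5 CPM in the *Gli1 HHIPCKO* library, the level of immune-like cells. The lowest *Adm* levels were in pericyte-like (2.60 and 1.49 CPM) and AT2-like cells (0.407 and 0.298 CPM). ALMF-like (19.3 and 15.7 CPM), DMF-like (15.4 and 18.98 CPM), mesothelial-like (8.76 and 11.1 CPM), ciliated-like (20.4 and 9.44 CPM), endothelial-like (8.96 and 19.7 CPM) and red cell-like cells (16.8 and 24.1 CPM) lay between, and 9 of 11 pairs of neighbours were not apart in each library.

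*Bnip3* was the most even member. In the control its levels ran from ciliated-like (122 CPM), ALMF-like (105), peribronchial and airway smooth muscle-like (97.6), DMF-like (91.9) and AT2-like cells to a second group of immune-like (52.3), alveolar fibroblast-like, mesothelial-like, endothelial-like (44.8) and adventitial fibroblast-like cells, with red cell-like and pericyte-like cells last. The neighbours apart in this order were AT2-like over immune-like cells and adventitial fibroblast-like over red cell-like droplets. In the *Gli1 HHIPCKO* library ALMF-like cells (169) came first, then ciliated-like (134), peribronchial and airway smooth muscle-like (122), DMF-like (117) and then AT2-like cells. The step from AT2-like to alveolar fibroblast-like cells was the 1 of 11 that was apart. Mesothelial-like, adventitial fibroblast-like, immune-like (69.8), endothelial-like (69.0), red cell-like and pericyte-like cells completed it.

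*Egln3* was apart in peribronchial and airway smooth muscle-like cells from every later class in both libraries. Mesothelial-like (18.3 and 27.3 CPM in the control and *Gli1 HHIPCKO* libraries), DMF-like, immune-like (9.85 and 5.66 CPM), ALMF-like, endothelial-like (5.97 and 4.93 CPM), ciliated-like (4.43 and 3.15 CPM) and red cell-like cells (2.52 and 3.44 CPM) followed, and no neighbours among them were apart. Adventitial fibroblast-like (0.681 and 2.04 CPM), alveolar fibroblast-like (0.597 and 0.719 CPM) and AT2-like cells (0.542 and 0.238 CPM) had 8 UMIs or fewer in each library, and pericyte-like cells had 0 and 1.

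*Ankrd37* and *Slc2a1* were both highest in ciliated-like cells. *Slc2a1* stood there at 47.8 and 56.7 CPM, apart from immune-like cells (18.2 and 15.1 CPM) in both libraries, with the other 10 classes between 2.52 and 11.02 CPM in the control and between 1.49 and 9.61 CPM in the *Gli1 HHIPCKO* library, no neighbours apart. *Ankrd37* in the ciliated-like class was apart from the next class in the control only, and the other 11 classes held at most 9.85 CPM in the control and 9.86 CPM in the *Gli1 HHIPCKO* library. *Pdk1* was at 15.3 and 15.3 CPM in mesothelial-like, 15.1 and 23.6 CPM in ciliated-like and 11.9 and 17.3 CPM in AT2-like cells, with the other 9 classes at or under 8.34 and 9.43 CPM, and no neighbours in its order were apart. For *Ndrg1* mesothelial-like cells came first, with endothelial-like (29.9 and 19.7 CPM), adventitial fibroblast-like, immune-like (15.9 and 20.8 CPM) and alveolar fibroblast-like cells next and the other 7 classes at or under 5.66 CPM in the control and 9.44 CPM in the *Gli1 HHIPCKO* library. In the *Gli1 HHIPCKO* library 3 of 11 *Ndrg1* neighbours were apart, namely mesothelial-like over adventitial fibroblast-like, that over alveolar fibroblast-like and DMF-like over AT2-like cells, and in the control none was.

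Other genes of the pathway were read from a list of 63 genes, of which 62 had a single identifier in the files. In myofibroblast-like cells 54 of them had at least 50 UMIs. Of these, 10 were at least 1.5-fold higher and 4 were at least 1.5-fold lower, with a median ratio of 0.05 beside −0.02 over all genes. Over all genes 7.73% were higher and 6.46% were lower, so the share of the list that was higher was above that of all genes while the medians were close. The list was chosen with earlier results of these data known, so this share and those given below are no independent evidence. Among the genes of oxygen sensing, 3 of 10 were higher and 0 were lower. *Hif3a*, an alpha subunit whose variants can restrain the others, stood at 4.001 and 12.8 CPM, 1.67, while *Egln1*, which encodes the main oxygen-sensing hydroxylase PHD2, stood at 158 and 149 CPM, −0.08. Of 16 measured genes of glycolysis and glucose transport 1 was higher and 0 were lower, and the most abundant, *Gapdh*, stood at 820.1 and 812 CPM, −0.01. The 6 mitochondrial and autophagy genes were all within 1.5-fold, with *Bnip3l*, the closest relative of *Bnip3*, at 327 and 280.2 CPM, −0.22. Most glycolytic genes of the list were thus within 1.5-fold in these cells.

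Among 9 measured secreted factors and matrix enzymes, 3 were higher and 1 was lower. *Loxl2*, a collagen crosslinking oxidase, stood at 283 and 634 CPM, 1.16, *Pgf*, a relative of *Vegfa*, at 19.4 and 44.8 CPM, 1.21, and *P4ha1*, a collagen prolyl hydroxylase, at 75.1 and 44.9 CPM, −0.74. Of 8 stress and transcription genes 2 were higher and 1 was lower, and *Ddit4*, an inhibitor of mTORC1, stood at 141 and 262 CPM, 0.90. *Ddit4* is also in the study's table of ALMF markers. Of 5 measured receptor genes for VEGFA and adrenomedullin 1 was higher and 2 were lower, with *Nrp1*, a VEGFA co-receptor, at 102 and 175 CPM, 0.78 and *Ramp2*, which pairs with the adrenomedullin receptor, at 158 and 87.3 CPM, −0.85. *Ramp2* is among the endothelial markers given above. The acid-base genes *Car9* and *Car12* had fewer than 50 UMIs.

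In ALMF-like cells 41 genes of the list were measured, 7 were higher and 4 were lower, from *Ddit4* (232 and 588 CPM, 1.34) to *Jmjd6* (73.0 and 35.6 CPM, −1.04) and *Maff* (41.5 and 12.8 CPM, −1.70). *Angptl4*, an inhibitor of lipoprotein lipase and the most abundant secreted gene there, stood at 256 and 484 CPM, 0.92. In DMF-like cells 8 of 52 were higher and 4 were lower, from *Hif3a* (3.60 and 13.6 CPM, 1.91) and *Ddit4* (90.4 and 244 CPM, 1.43) to *P4ha1* (75.2 and 45.7 CPM, −0.72) and *Cited2*, a HIF antagonist (64.4 and 32.4 CPM, −0.99). In alveolar fibroblast-like cells 5 of 46 were higher and 1 was lower, from *Ddit4* (8.95 and 73.9 CPM, 3.04) and *Maff* (19.7 and 37.4 CPM, 0.92) to *Pgk1* (66.3 and 48.4 CPM, −0.45) and *P4ha1* (75.2 and 40.1 CPM, −0.91). In AT2-like cells 9 of 47 were higher and 1 was lower, from *Hif3a* (1.22 and 5.48 CPM, 2.17) and *Loxl2* (1.76 and 4.40 CPM, 1.32) to *Hif1an* (19.04 and 14.6 CPM, −0.38) and *P4ha1* (86.3 and 55.5 CPM, −0.64). Red cell-like droplets held 40.3 and 97.3 CPM of *Loxl2* and 20.98 and 62.8 CPM of *Ddit4*. AT2 markers summed to 41086 and 58480 CPM in the droplets and to 2503 and 2001 CPM in alveolar fibroblast-like cells. DMF markers summed to 510 and 801 CPM in the droplets and to 27.3 and 35.5 CPM in AT2-like cells. The part of free RNA in *Loxl2* of AT2-like cells and in *Ddit4* of alveolar fibroblast-like cells was not tested. The medians of the list were −0.03, −0.05, −0.02 and 0.08 in these 4 classes. *Gapdh*, the most abundant glycolytic gene in each, had ratios of −0.02, −0.05, −0.18 and −0.01 in the same order. The medians of the list lay close to those of all genes, while the counts of higher genes stand beside 7.64%, 7.26%, 7.94% and 5.47% of all genes, and were a larger share of the list than that in these 4 classes. This did not hold in every class. In peribronchial and airway smooth muscle-like cells 3 of 36 genes were higher and 8 were lower, beside 10.5% and 7.45% of all genes, in ciliated-like cells 1 of 33 was higher, beside 5.86%, and in endothelial-like cells 2 of 22 were higher, beside 11.1%.

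The most abundant gene of each other role, where not given above, had the following ratios. *Egln1* had ratios of −0.35 for ALMF-like cells and −0.06 for DMF-like cells, and *Cited2* had −0.25 in alveolar fibroblast-like and 0.06 in AT2-like cells. *Bnip3l* had −0.18 and −0.06 in ALMF-like and DMF-like cells, and *Higd1a*, a mitochondrial protein, 0.07 and −0.28 in alveolar fibroblast-like and AT2-like cells. *Mif*, a cytokine, had −0.09, 0.06 and −0.13 in DMF-like, alveolar fibroblast-like and AT2-like cells. *Lox* had 0.14 in alveolar fibroblast-like cells and *Loxl2* 0.85 in DMF-like cells. Among receptors, *Ramp2* had 0.40 in ALMF-like, *Nrp1* 0.78 in DMF-like and 0.42 in alveolar fibroblast-like, and *Ramp1* 0.08 in AT2-like cells.

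Each member was also compared with the 12685 genes that had at least 200 UMIs, by Pearson's r of log2(CPM + 1) over 24 points, the 12 classes in each of 2 libraries, which share library and depth. The genes most like *Stc1* were *Ubash3b* (0.862), *Mex3b* (0.842) and *Rnf152* (0.813). Those most like *Hilpda* were *Vash1* (0.915), *Med7* (0.905) and *Eng* (0.901), and those most like *Vegfa* were *Adra1a* (0.821), *Col23a1* (0.810) and *Notum* (0.760). For *Adm* they were *Gsn* (0.955), *Srpx* (0.927) and *Astn2* (0.924), for *Egln3* *Nxnl2* (0.907), *Lgr6* (0.887) and *Sntg2* (0.877) and for *Bnip3* *Ptpn3* (0.819), *Isoc2b* (0.818) and *Pex11a* (0.817). For *Pdk1* they were *Ces1d* (0.925), *Gsta4* (0.914) and *Alcam* (0.909), for *Slc2a1* *Rfk* (0.870), *Rsph1* (0.865) and *Fam167a* (0.860), for *Ankrd37* *Atp13a3* (0.876), *Hip1r* (0.873) and *Map7* (0.863) and for *Ndrg1* *Tapbp* (0.839), *AW112010* (0.826) and *Frrs1* (0.822). *Lgr6*, *Sntg2*, *Ces1d* and *Rsph1* had served as class markers. Among the members, the highest r was 0.713 between *Stc1* and *Hilpda* and the lowest was −0.698 between *Stc1* and *Pdk1*. The members thus had no common pattern over the classes.

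Because members moved in opposite directions in the same cells, their promoters were read for the core of the hypoxia response element, ACGTG or GCGTG on either strand. The motifs differ in their first letter, and matches on the 2 strands can overlap. RefSeq promoter windows on GRCm38.p6, from 250 bases before to 50 after a start, were at hand for 8 of the 10 members, in 11 windows. *Stc1* and *Ndrg1* had no entry. ACGTG was found in 19.6% and GCGTG in 32.4% of all 32851 windows, and either of them in 43.8%. Of the 11 member windows, 6 held ACGTG, 8 held GCGTG and 9 held either. A match is a description of the letters and not a site of binding. The stretches upstream of the annotated exons are shown for 2 members that were higher in *Gli1 HHIPCKO* myofibroblast-like cells, *Bnip3* (chr7:138909520-138909756, minus strand) and *Egln3* (chr12:54203875-54204124, minus strand), and 2 that were lower, *Hilpda* (chr6:29272238-29272487, plus strand) and *Vegfa* (chr17:46032378-46032627, minus strand). Capitals mark a motif on either strand, so that CACGT and CACGC are matches on the other strand. *Bnip3* has 5 matches and *Egln3* has 1. *Hilpda* and *Vegfa* have 0 in the stretch shown. The *Hilpda* matches lie within annotated exons of its windows, and the *Vegfa* matches lie within an annotated exon of its other window, chr17:46025114-46025413. The whole windows hold 1 and 3 matches for *Hilpda* and 0 and 2 for *Vegfa*. All 8 members with a window held either motif in at least 1 window. The counts in the stretches thus depend on leaving exons out, and no link with direction is read from them.
Bnip3: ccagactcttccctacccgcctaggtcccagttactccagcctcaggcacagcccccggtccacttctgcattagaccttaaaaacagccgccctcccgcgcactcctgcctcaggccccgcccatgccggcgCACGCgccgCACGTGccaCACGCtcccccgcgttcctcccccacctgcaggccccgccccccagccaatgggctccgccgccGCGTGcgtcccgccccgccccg
Egln3: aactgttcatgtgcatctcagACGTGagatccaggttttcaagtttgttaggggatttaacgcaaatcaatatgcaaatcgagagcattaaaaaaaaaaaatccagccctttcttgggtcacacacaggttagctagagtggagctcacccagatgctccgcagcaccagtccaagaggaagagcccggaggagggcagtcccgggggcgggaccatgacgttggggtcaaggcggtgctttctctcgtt
Hilpda: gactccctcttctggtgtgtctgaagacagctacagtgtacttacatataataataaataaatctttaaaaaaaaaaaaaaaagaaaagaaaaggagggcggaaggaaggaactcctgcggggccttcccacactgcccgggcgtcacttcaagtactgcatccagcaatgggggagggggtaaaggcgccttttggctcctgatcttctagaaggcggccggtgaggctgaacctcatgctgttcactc
Vegfa: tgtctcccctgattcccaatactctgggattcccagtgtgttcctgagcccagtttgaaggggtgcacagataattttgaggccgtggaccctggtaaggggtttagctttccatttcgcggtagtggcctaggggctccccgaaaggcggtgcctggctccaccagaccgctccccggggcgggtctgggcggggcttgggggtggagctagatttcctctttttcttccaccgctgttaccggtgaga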

How the data were processed

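The authors aligned reads to mm10, counted UMIs per gene and cell with Cell Ranger and deposited these counts without normalization. The matrix headers give version 6.1.0 and the submitters' notes 3.1.0. The labels name a 3′ kit and the study's methods a 5′ kit.

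Filters kept cells with 200 to 6000 genes and no more than 10% of UMIs from mitochondrial genes. After log-normalization, 2000 variable genes, with 79 genes (members, pathway list and others) held out, 30 components, 20 neighbours and Leiden resolution 1 were used on both libraries merged without integration. Clusters were named by listed markers. Doublets were kept, and clusters made mostly of likely doublets stayed unnamed. UMIs were summed per class and library. Exact Poisson (CPM) and exact binomial (ratios, shares) intervals at 95% were computed, with 3 counts as the limit for 0. A difference counted at 1.5-fold with at least 50 UMIs.

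The members and lists were chosen with earlier results of these data known. Named genes are all members, up to 2 of the largest and 2 of the smallest ratios of the pathway list and the most abundant gene of each role in 5 cell sets, and 3 likeness genes per member. Values for adventitial fibroblast-like cells, other classes and the genes in the closing part were chosen after they were seen. *Aldoa*, which has more than 1 identifier in the files, was left out. Positions are those of GENCODE on GRCm38. Scripts were tested on simulated data. Alternatives changed clustering, filters, doublets, scaling, averaging, depth and thresholds. The software was matplotlib 3.10.9, leidenalg 0.10.2, igraph 0.11.9, scikit-learn 1.9.0, pandas 2.3.3, scipy 1.17.1 and numpy 2.4.6 under Python 3.11.15.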

Additional observations from a re-analysis of the deposited data

Results flagged for a closer look

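The ratio of *Vegfa* had opposite signs in different classes, past 1.5-fold in each and with intervals that leave out 0. Its log2 ratio of *Gli1 HHIPCKO* over control was −0.96 (−1.13 to −0.78) in myofibroblast-like cells and −0.68 (−0.94 to −0.41) in the DMF-like cells among them, and it was 1.04 (0.09 to 2.10) in pericyte-like cells. The pericyte-like value rests on 12 control and 43 *Gli1 HHIPCKO* UMIs, 15.6 and 32.0 CPM. In the same class the 8 red cell markers summed to 866 and 15097 CPM, and *Vegfa* in red cell-like droplets was 23.5 and 53.4 CPM. The pericyte-like levels thus lie at or under those of the droplets, in which *Vegfa* was higher in the *Gli1 HHIPCKO* library too. The red cell markers summed to 639743 and 508358 CPM in the droplets. AT2 markers summed to 7025 and 3251 CPM in pericyte-like cells and to 41086 and 58480 CPM in the droplets. The part of free RNA in the pericyte-like *Vegfa* levels was not tested, nor was a higher level in the cells themselves. The difference between the classes was not tested.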

How the results depend on the processing

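No paired analysis was possible because each group has 1 library and the result comes from no test. Summed ratios had 51 alternatives, of which 42 stayed within the counting interval of the value reported. Leaving out *Stc1* and *Hilpda*, an alternative chosen after seeing the data, turned the summed ratio to 0.0716 in myofibroblast-like, 0.29 in ALMF-like cells and 0.16 in DMF-like cells, and the number of members past 1.5-fold became 2 (from 4), 1 (from 3) and 2 (from 4). With immediate early genes held out of clustering, the summed ratio was −0.0133 in alveolar fibroblast-like cells, with 4 members past 1.5-fold (from 2), and −0.58 in ALMF-like cells. With each library clustered on its own it was −0.95 in ALMF-like and 0.31 in alveolar fibroblast-like cells, where 4 members passed. At resolution 0.5 it was −0.0115 for ALMF-like cells and −0.52 for DMF-like cells. A 2-fold threshold left 1 member in ALMF-like and 0 in AT2-like cells, and thinning left 1 in AT2-like cells. The cause of these moves was not tested, apart from the members or the threshold an alternative changes by its own construction. The other 53 of 61 counts stayed within 1.5 times.

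Of 323 ratios of single members under alternatives, 305 stayed within their counting interval, 18 moved and 0 of those whose interval leaves out 0 turned. In myofibroblast-like cells the ratio ranged over 10 alternatives from −2.59 to −2.48 for *Stc1*, from −2.08 to −1.79 for *Hilpda*, from −1.07 to −0.84 for *Vegfa*, from 1.47 to 1.66 for *Egln3* and from 0.33 to 0.41 for *Bnip3*. The 10 shares of cells were lower after thinning, which removes UMIs.

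There was 1 mouse per group, so variation between mice, sex-linked differences and tamoxifen cannot be told apart from the deletion. Clusters rich in 1 library may be that library rather than a cell type. *Ankrd37*, *Pdk1*, *Slc2a1* and *Ndrg1* had too few UMIs in most classes to show differences under 1.5-fold. Red cell-like droplets differed between the libraries, with medians of 369 and 1102.5 genes and of 0.0733% and 0.351% mitochondrial UMIs. A high doublet score was held by 39 of 217 and 20 of 198 of them. AT2 markers summed to 41086 and 58480 CPM in these droplets and to 3085 and 2094.5 CPM in myofibroblast-like cells. A droplet level is thus not the level of free RNA in every class. The part of free RNA in levels near those of the droplets was not tested. Transcript levels say nothing of oxygen in the tissue.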

Other observations

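Some genes of the pathway list leaned one way across classes, and these were chosen after their values were seen. *Ddit4* was above 0 in all 12 classes with at least 50 UMIs, with the interval above 0 in 9, and *Angptl4* was above 0 in 11 of 11, with the interval above 0 in 7. The red cell-like class is among these for both genes and for *Nrp1*, and there 54.0% of 3055 genes were at least 1.5-fold higher. *Nrp1* was above 0 in 11 of 12 classes, with the interval above 0 in 8. In the other direction, *P4ha1* was below 0 in 10 of 11 classes, with the interval below 0 in 7, *Jmjd6*, a dioxygenase, was below 0 in 9 of 9, with the interval below 0 in 2, and *Ldha*, the lactate dehydrogenase subunit, had its interval below 0 in 8 of 12 and above 0 in 2. Other glycolytic genes were *Pgk1*, below 0 in 10 of 10 classes with the interval below 0 in 2, *Pgam1*, below 0 in 10 of 12 with the interval below 0 in 4, and *Eno1*, below 0 in 8 of 12 with the interval below 0 in 5. *Gapdh* was below 0 in 9 of 12, with the interval below 0 in 5 and above 0 in 1. Not all genes of that role leaned down: *Gpi1* was above 0 in 8 of 12 classes, with the interval above 0 in 3 and below 0 in none, *Pfkp* was above 0 in 5 of 10 and *Pfkfb3* in 3 of 7, each with the interval above 0 in 2 and below 0 in none, and *Hk1* was above 0 in 4 of 8, with the interval above 0 in 2 and below 0 in 1. In myofibroblast-like cells *Ldha* stood at 631 and 523 CPM, a ratio of −0.27 (−0.33 to −0.21). The classes share the same 2 libraries, so these counts are not independent. The share of all genes that kept 1 sign over as many classes is not given here, so these counts are not read as unusual.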
